A study of Mus musculus with 2 samples.

Results

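The H3K56ac intervals of mouse embryonic stem cells left 331 autosomal stretches of more than 1 Mb empty, out of 90222 gaps between neighbouring intervals on chromosomes 1 to 19. These stretches are described here. They were selected by their measured length in the same interval list, as the next interval's start minus the previous interval's end minus 1, so their length and emptiness are the rule and not a finding. Everything below is a description with no test. The study performed chromatin immunoprecipitation and sequencing (ChIP-seq) of H3K56ac, histone H3 acetylated at lysine K56, in E14Tg2a, a feeder-independent embryonic stem cell line. The cells were otherwise untreated and grown in serum and leukaemia inhibitory factor. Of the 2 libraries, 1 ChIP and 1 input DNA, the ChIP library gave the list and the input was not analysed here, so there is no replicate. The list gives a chromosome, a start and an end for 92549 intervals, 90241 of them on the autosomes, with positions in mm9, the build that the submitters' processing notes name. It holds no read count, so the depth is unknown, and a site too weak to be listed cannot be told apart from a site without H3K56ac.

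Lysine K56 lies in the globular core of H3, where DNA enters and leaves the nucleosome, and its acetylation in mammalian cells is associated with active promoters and enhancers. Mammalian autosomes alternate between gene-rich, early-replicating segments and gene-poor, late-replicating segments that often lie at the nuclear lamina. They also hold repeats to which short reads cannot be assigned uniquely. This is background: genes, repeats and unassigned bases of the stretches were not analysed here, and no mm9 sequence or annotation was used, so the stretches carry positions and no gene names. Their part in what follows was not tested.

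Few gaps made up a large share of the autosomes. The 331 stretches were 0.367% of the gaps, which is the share fixed by the limit. Together they measured 588 Mb, or 24.4% of the autosomal span (2408 Mb, each chromosome measured from its first listed interval to its last). The 39776 gaps of at most 1 kb, by contrast, were 44.1% of gaps and 0.737% of the span. Gaps of over 100 and up to 500 kb (3386 gaps) held 28.3% of the span, and those of over 500 kb up to the limit (524 gaps) held 15.2%. The long stretches were therefore the far end of a continuous range in which most of the span lay in gaps of over 100 kb. Outside the stretches the autosomes had 49.6 intervals per Mb, against 37.5 over the whole span.

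The median stretch was 1.51 Mb long (quartiles 1.19 and 2.11 Mb, range 1.00 to 7.70 Mb). There were 96 stretches of over 2 Mb, which held 45.2% of the summed length, 23 of over 3 Mb and 6 of over 4 Mb. No break was seen at the limit of 1 Mb. The 5 shortest members measured 1000850 and 1001000 bp (both on chromosome 6), 1006950 bp (chromosome 19), 1009450 bp (chromosome 6) and 1012550 bp (chromosome 13). The 5 longest gaps left out measured 996100 bp (chromosome 13), 992700 bp (chromosome 10), 988650 bp (chromosome 12), 986200 bp (chromosome 15) and 986100 bp (chromosome 10).

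**Figure D1:**
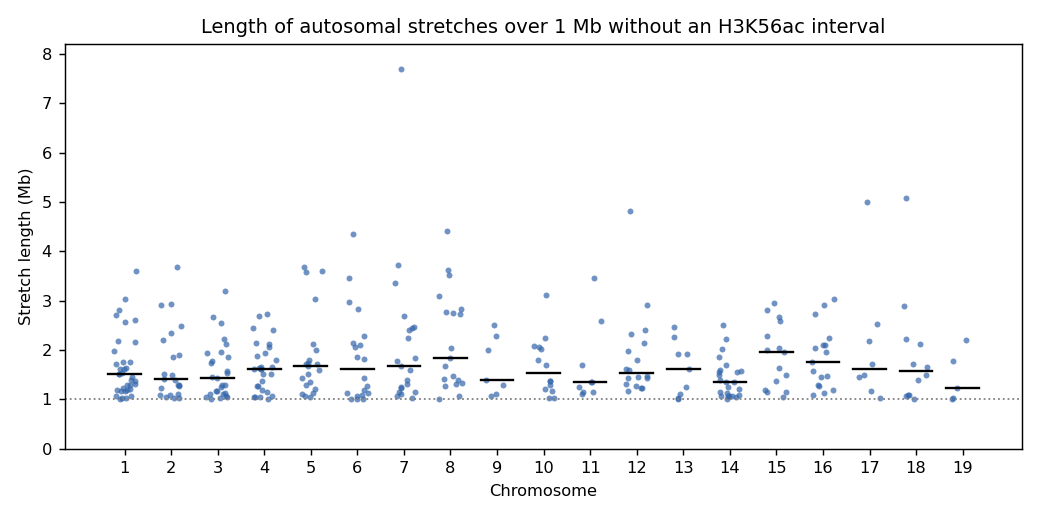
Length in Mb of each of the 331 stretches by chromosome (points, spread sideways for visibility), with the chromosome's median as a black line and the 1 Mb limit as a dotted line. Medians lie between 1.23 Mb (chromosome 19) and 1.97 Mb (chromosome 15), and 1 stretch on chromosome 7 stands at 7.70 Mb, above the next at 5.08 Mb.

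The longest stretches differed in how they were bordered. The longest, chr7:39039701-46741650, was 1.52 times the length of the second. On its low-numbered side it ended at a group of 18 intervals, and 87 intervals lay within 1 Mb of that edge. On the other side 4 intervals lay within 1 Mb. The second, 5.08 Mb at chr18:85599501-90679750, began after an isolated 50 bp interval and ended 71150 bp before the last interval of its chromosome, with 6 intervals left beyond it and 33 within 1 Mb before it. The third, 4.99 Mb at chr17:57470101-62461400, had 187 intervals within 1 Mb on its low-numbered side and 2 on the other. The stretches on chromosomes 7 and 17 thus each had one populated and one sparse side, whereas that on chromosome 18 reached almost to the end of its chromosome.

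The next stretches of over 4 Mb were mostly bounded by narrow intervals. The stretch chr12:47624401-52448100 (4.82 Mb) and the stretch chr8:102068351-106473800 (4.41 Mb) each had a 50 bp interval at both edges. The stretch chr6:76329501-80670800 (4.34 Mb) began after an interval of 550 bp, wide for an edge, and ended at a single 50 bp interval, after which another member of 1.19 Mb followed. In contrast, the 3.72 Mb stretch chr7:20539251-24254300 lay between populated flanks, with 223 intervals within 1 Mb before it, the most beside any edge, and 39 after it. The other members among the 10 longest were chr5:68257451-71947950 (3.69 Mb), chr2:97873651-101557300 (3.68 Mb) and chr8:4933951-8557000 (3.62 Mb).

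The share of a chromosome that lay in such stretches ranged from 9.72% to 33.1%, with a mean of 23.8 ± 7.55% (SD between 19 autosomes). Chromosome 16 had the highest share, 33.1% in 17 stretches, followed by chromosome 8 (32.5%, 19 stretches), chromosome 1 (30.5%, 35 stretches) and chromosome 4 (30.5%, 28 stretches). Chromosome 9 had the lowest, 9.72% in 7 stretches. It was followed by chromosome 13 (12.48%, 9 stretches), chromosome 19 (12.48%, 5 stretches) and chromosome 11 (12.7%, 9 stretches). Shares did not spread evenly: 12 autosomes were above 25%, 6 were below 20%, and chromosome 2 lay between them with 21.1%. Per 100 Mb of span, chromosome 14 had the most stretches, 19.7, and chromosome 9 the fewest, 5.83.

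A chromosome's density of intervals did not by itself give its share of long stretches. The densest autosomes, chromosomes 11, 17 and 19 (61.4, 51.3 and 48.5 intervals per Mb), had low shares (12.7%, 18.0% and 12.48%). Other chromosomes did not follow this order. Chromosome 4 had rank 4 of 19 in intervals per Mb (45.4) and also rank 4 in the share held by stretches (30.5%). Chromosome 13 had rank 18 in density (25.6 intervals per Mb) and rank 18 in that share (12.48%). Its intervals were sparse without leaving many gaps past the limit. Chromosome 3, the least dense with 24.2 intervals per Mb, had 27.5% of its span in stretches, close to chromosome 15 (28.3%), whose density was 41.2. Across the 19 autosomes, share and density had a Pearson r of -0.40 (Spearman rho -0.21), and r was -0.23 without chromosomes 11 and 3, the 2 farthest from the median density. Part of this is built in, since a stretch holds no interval. Against the density outside the stretches, r was -0.01 (rho 0.10), and -0.02 without chromosomes 11 and 13. The share also enters that density, whose denominator leaves out the stretches. A value near 0 therefore does not show that the 2 are unrelated. These are descriptions over 19 chromosomes of 1 library.

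**Figure D2:**
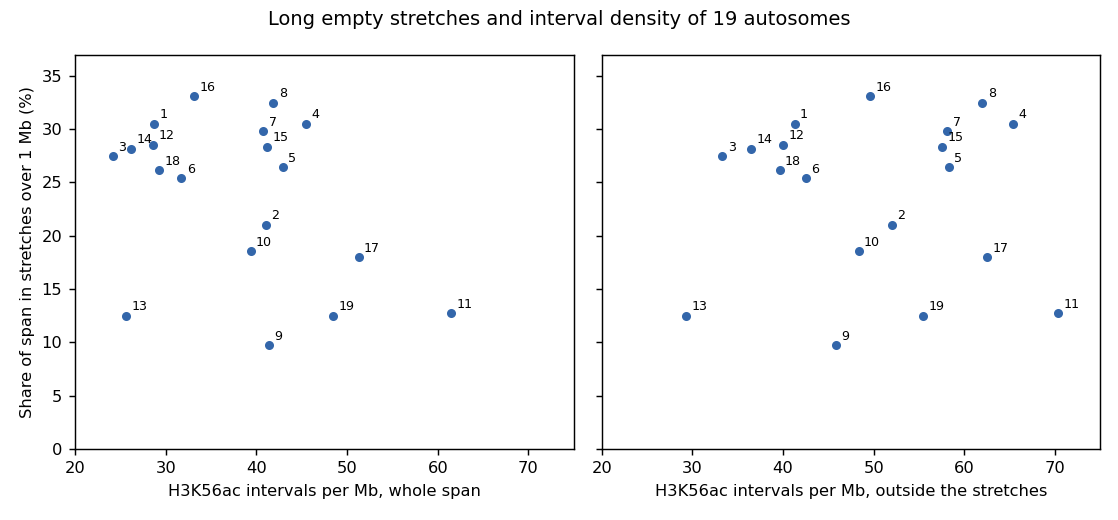
Share of each autosome's span in stretches over 1 Mb (vertical axis, %) against its H3K56ac intervals per Mb (horizontal axis), over the whole span (left) and outside the stretches (right); points are chromosomes, with their numbers. Chromosome 4 is dense with a high share (30.5%), and chromosome 13 is sparse with a low share (12.48%).

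The X chromosome had far fewer intervals per Mb than the autosomes, but its values for long stretches lay near theirs. X had 24 stretches, 14.7 per 100 Mb, against 13.7 per 100 Mb over the autosomes. They held 28.1% of its span, within the range of the 19 autosomes, and their median length was 1.59 Mb against 1.51 Mb. Its density was 13.5 intervals per Mb, against 37.5. Outside the stretches X still had 18.7 intervals per Mb against 49.6 on the autosomes. Gaps of over 100 kb and up to 1 Mb held 56.8% of the X span and 43.5% of the autosomal span. E14Tg2a cells carry 1 X, and the effect of copy number was not tested.

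Some stretches followed each other with little between them, and others lay far apart. On the 19 chromosomes, 312 islands separated neighbouring stretches, an island being all the intervals between one stretch and the next. The median island held 41 intervals (quartiles 7 and 250.8) over 2.00 Mb. Islands thus ran from a single interval to large populated segments. Of the 312, 71 (22.8%) held at most 5 intervals and 119 (38.1%) held 100 or more. The 3 with the most intervals were chr2:142464451-174967400 (2631 intervals over 32.5 Mb), chr9:34796551-80217150 (2492 over 45.4 Mb) and chr16:6843001-40256750 (2087 over 33.4 Mb). The last occupied a large part of the chromosome that had the highest share in stretches.

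At the other end, 26 islands (8.33%) were 1 interval each. Of these, 13 were 50 bp wide, 10 were 100 bp wide, and the remaining 3 were 150, 200 and 650 bp wide. The interval of 650 bp, at chr15:19793051-19793700, stood between stretches of 2.81 and 1.503 Mb. The emptiest surroundings of a single interval were at chr7:10609301-10609350, a 50 bp interval between stretches of 3.36 and 2.40 Mb, 5.76 Mb in all. For each of the 26, 1 interval was the sole break in at least 2.17 Mb of otherwise empty sequence. The limit sets most of that minimum, since each side exceeds 1 Mb by rule. No second library tells whether such an interval would be found again.

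Islands of 2 to 5 intervals, of which there were 45, were mostly not compact. Their median outer span was 396050 bp, 10 fitted within 10 kb, and 19 spanned more than 500 kb. In most of them the few intervals were therefore scattered over a sparse region. The 173 intervals in islands of at most 5 had a mean width of 120 bp, against 184 bp over all autosomal intervals, and 73 of them (42.2%, exact binomial 95% interval 34.7 to 49.9%) were 50 bp wide. The share over all autosomal intervals was 30.5%. Intervals such as these are not independent, so this and the other binomial intervals cover counting error only. Narrow widths were not particular to these islands. Among intervals that bound no stretch, the 10236 with no other within 10 kb had a mean width of 103 bp, with 48.8% at 50 bp. The first and last interval of each island also bound a stretch, so they count again among the bounding intervals below.

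Joined across islands of at most 5 intervals, the 331 stretches formed 260 runs. Of these, 208 were single stretches, 36 had 2 members, 14 had 3, 1 had 4 and 1 had 5. The 52 runs of 2 or more took in 123 stretches (37.2%) and covered 248 Mb from end to end. They held 173 intervals, 0.697 per Mb. This low density is built in, since a stretch holds no interval and a joined island at most 5. The median of these runs was 4.44 Mb long from end to end. How many runs there are depends on the islands allowed: 25 runs of 2 or more remained when only islands of 1 interval were joined.

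The run with the most members was on chromosome 4, chr4:73930701-82036850, where 5 stretches of 1.02, 1.51, 2.41, 1.15 and 1.51 Mb were parted by islands of 2, 2, 1 and 5 intervals. The 10 intervals were 50 to 400 bp wide. The stretches made up 93.8% of the run, and the run ended at a group of 10 intervals that began at position 82036851. The next, chr14:106782851-114437850, had 4 stretches of 1.06 to 2.23 Mb and 10 intervals of 50 or 100 bp. Stretches made up less of this run (72.0%), and its last island spread 4 intervals over 1.52 Mb. Gaps of up to 1 Mb inside an island do not count towards this share.

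Runs of 3 members included the largest by length after chromosome 7. At chr6:73319651-81860300, stretches of 2.27, 4.34 and 1.19 Mb summed to 7.81 Mb, with 3 intervals between them. At chr15:16980501-25228600 the sum was 6.98 Mb with 5 intervals, and at chr5:77999451-85602650 it was 6.59 Mb with 6. The run with the largest summed length was chr7:39039701-48649200, where 4 intervals of 50 or 100 bp, spread over 66350 bp, parted the 7.70 Mb stretch from one of 1.84 Mb. At chr8:99242151-106473800, an island of 2 intervals, 100 and 50 bp wide, parted stretches of 2.75 and 4.41 Mb. The named runs thus contained between 2 and 10 intervals each.

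**Figure D3:**
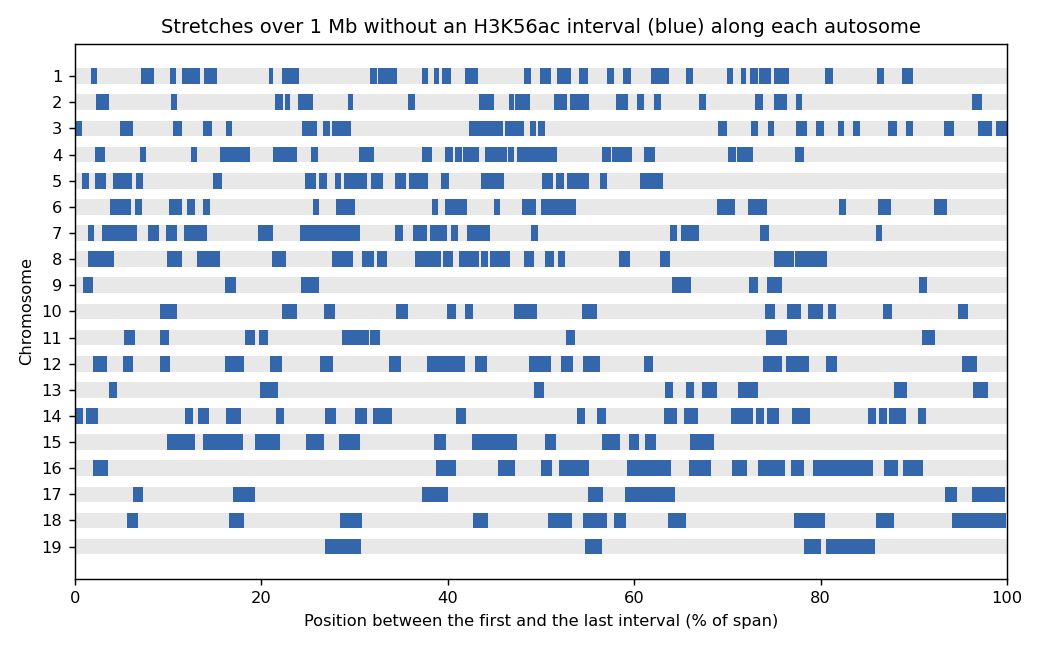
Stretches over 1 Mb (blue) along each autosome, whose span from the first to the last interval is drawn as 0 to 100% (grey); rows are chromosomes. Stretches bunch together on several chromosomes, and chromosome 5 has none in the last 36.9% of its span.

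The intervals at the edges of the stretches were narrow. There were 636 bounding intervals for 662 edges, since 26 intervals bounded a stretch on both sides. Of the 636, 299 (47.0%, exact binomial 95% interval 43.1 to 51.0%) were 50 bp wide, the smallest width in the list, against 30.5% of all autosomal intervals. Their mean width was 109 bp against 184 bp. Only 11 (1.73%) were 500 bp or wider, against 7.09% over all, and the widest was 1050 bp. Both edges were 50 bp wide at 74 of the 331 stretches, and both were at most 100 bp wide at 202.

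Bounding intervals also had few close neighbours on the side away from the stretch. The gap on that side had a median of 49550 bp (quartiles 1400 and 335350 bp, 661 edges with a further interval), against a median of 1500 bp over all autosomal gaps. It was under 10 kb at 243 edges (36.8%), against 73.6% of all gaps. At 278 edges (42.1%) it was over 100 kb, against 4.70% of all gaps, and at 52 it was itself a member stretch. The remaining edge belonged to chr14:3047801-4122100, which began at the first interval of chromosome 14.

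When bounding intervals were set beside others of the same class by neighbours within 10 kb, their mean widths lay close together. No other interval lay within 10 kb of 393 of the 636 bounding intervals (61.8%), against 11.8% of all autosomal intervals, a difference that the rule favours because one side is empty by choice. These 393 had a mean width of 99.2 bp, and 51.9% of them (46.8 to 56.9%) were 50 bp wide. The 10236 other lone intervals had a mean width of 103 bp, with 48.8% (47.8 to 49.8%) at 50 bp. The 243 bounding intervals with a neighbour within that distance had a mean width of 125 bp and 39.1% (32.9 to 45.5%) at 50 bp. Other intervals at the end of such a group, 26169 in number, had a mean of 136 bp and 36.3% (35.7 to 36.9%) at 50 bp. In both pairs the binomial intervals of the share at 50 bp overlapped, which does not show that the widths are equal. Bounding intervals were thus narrow beside the whole list, and much less so beside intervals placed as sparsely.

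Large groups of intervals were rare at the edge of a stretch. Intervals less than 10 kb apart were joined into groups. The group at the edge was a lone interval at 419 of 662 edges (63.3%), against 44.6% of all 23844 autosomal groups, and a pair at 121 (18.3%), against 18.1%. It held 10 intervals or more at 7 edges (1.06%), against 8.08% of all groups. Lone intervals were thus more frequent at the edges than among all groups, and pairs were about as frequent. A group that bounds 2 stretches counts at both edges. The largest such group had 32 intervals covering 7150 bp, from 77432151 to 77472100 on chromosome 1, and bounded a stretch of 1.397 Mb. The next, on chromosome 15 from 61810301 to 61849350, had 21 intervals covering 7550 bp after a stretch of 1.97 Mb. The third was the group of 18 intervals before the longest stretch, on chromosome 7 from 38992651 to 39039700.

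With the bounding interval not counted, density beside the stretches was below the autosomal value at every distance examined. It did not rise steadily with distance. Within 50 kb of an edge there were 30.3 intervals per Mb without the bounding interval, and 50.4 with it, above the autosomal 37.5. The density was 18.6 per Mb from 50 to 100 kb, 21.2 from 100 to 200 kb, 22.4 from 200 to 500 kb and 22.2 from 500 kb to 1 Mb. It was 25.05 from 1 to 2 Mb and 28.1 from 2 to 3 Mb, still below the autosomal 37.5. By this count density was highest in the nearest window, lowest just beyond it, and intermediate farther out. Each nearest window starts at an interval, and no such profile was computed around other intervals. Other stretches took up part of these windows, 11.1% of the nearest and 34.8% of the farthest. With their bases left out, density was 34.1 per Mb within 50 kb, 21.3 from 50 to 100 kb and 30.6 from 500 kb to 1 Mb. It was 37.9 from 1 to 2 Mb and 43.1 from 2 to 3 Mb, against 49.6 over the autosomes outside stretches. The order thus changed: the windows beyond 1 Mb exceeded the nearest, and density rose with distance from 50 kb outward. The widths of the intervals beside the bounding one were close to those of the list: 30.4% of those within 50 kb were 50 bp wide, as were 31.7% from 50 to 100 kb and 30.8% from 200 to 500 kb, against 30.5% over all. The narrow widths at the edge were those of the bounding intervals. Windows of neighbouring stretches overlap, so an interval can count more than once.

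**Figure D4:**
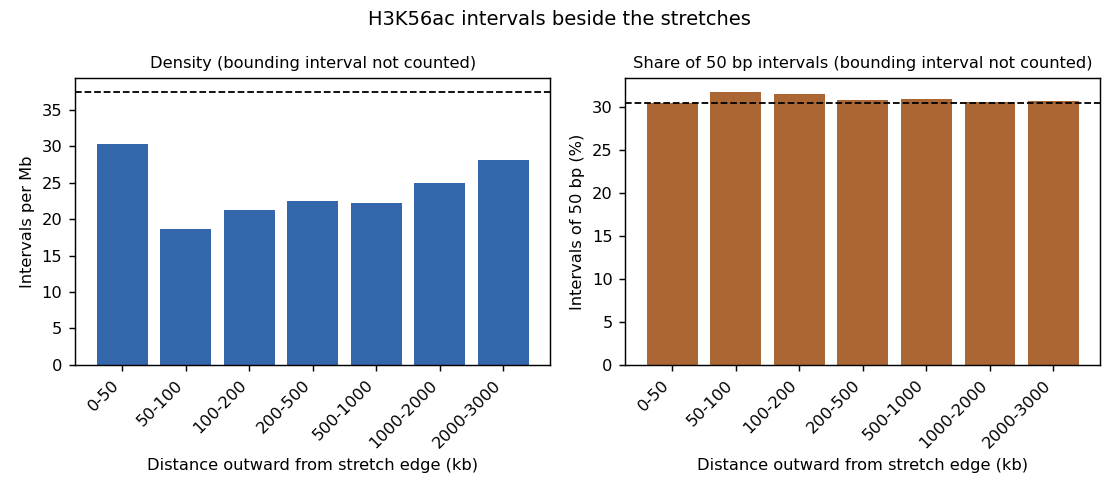
Intervals beside the 331 stretches by distance outward from the edge (horizontal axis, kb), the bounding interval not counted: intervals per Mb (left) and the share of intervals that are 50 bp wide (right); dashed lines are the values over all autosomes (37.5 per Mb and 30.5%). Density is below the dashed line in each window and lowest from 50 to 100 kb (18.6 per Mb), and the share of 50 bp intervals lies between 30.4% and 31.7%.

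The counts on the 2 sides of a stretch could differ widely. Within 1 Mb of an edge the median count was 12 intervals, bounding interval included and windows cut short at chromosome ends, and ranged from 1 (53 edges) to 223. At 127 stretches (38.4%) one side had at least 5 times as many as the other. With counts this small, 5 against 1 was enough. At 52 edges the next gap was itself a member, which set that side's count to 1. Neither this share nor the counts below were computed for windows elsewhere. At 81 stretches neither side had more than 10 intervals, and at 21 both sides exceeded the autosomal 37.5. The other 310 stretches had at least 1 side at or below that density.

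Long stretches were less frequent near the distal ends of the chromosomes. Mouse chromosomes have the centromere at the low-numbered end, so the high-numbered end is distal. The span of each chromosome was divided into 10 equal segments. By midpoint, 15 of the 331 stretches (4.53%) lay in the last 10% of the span, on 11 of 19 chromosomes, and 26 (7.85%) between 80 and 90%. The other segments had between 29 and 45, with the most between 40 and 50% of the span (13.6%). Intervals had the opposite order at the distal end, with 15.7% in the last segment and 13.9% in the one before. This opposition is in part built in, since a stretch holds no interval. Stretches took up 12.2% of the last segment and 34.0% of that from 40 to 50%.

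**Figure D5:**
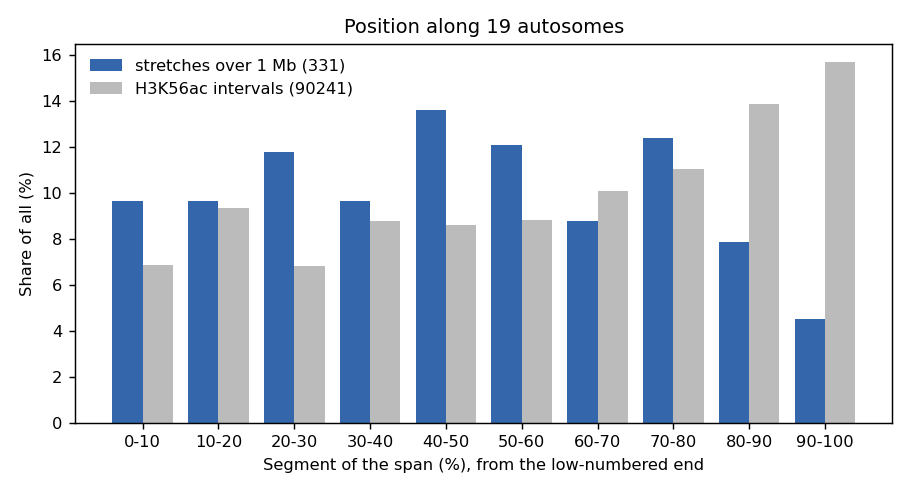
Share of the 331 stretches (blue) and of the 90241 autosomal intervals (grey) in 10 equal segments of the span (horizontal axis, %), by midpoint and by start, from the centromeric to the distal end. The last segment holds 4.53% of stretches and 15.7% of intervals. These shares are not independent, since a stretch holds no interval.

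On some chromosomes the distal part without a long stretch was extensive. On chromosome 5 the last 55.1 Mb (36.9% of the span) held 4226 intervals, 65.9% of that chromosome's, without a gap past the limit. On chromosome 4 the last 33.1 Mb held 4039 intervals, 58.3% of its total in 21.7% of its span. On chromosome 15 the last 31.5 Mb held 3044 intervals (73.8%). Chromosomes 5, 4 and 15 had the longest such parts, and the median over the autosomes was 9.17 Mb. The part was short and sparse on chromosome 13 (2.38 Mb with 14 intervals) and chromosome 12 (3.73 Mb with 66 intervals). Chromosomes 3, 17 and 18 had stretches closer still to the end. A stretch ended 1650 bp before the last interval of chromosome 3, another 0.216 Mb before that of chromosome 17, and the 5.08 Mb stretch 71150 bp before that of chromosome 18. Chromosomes 3 and 17 each had 3 stretches in the last 10% of the span, the most of any. At the centromeric end the stretches were about as frequent as over the whole, with 32 (9.67%) in the first 10% of the span, although intervals were sparse there (25.7 per Mb).

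The remaining chromosomes each had their longest stretch in another place. On chromosome 1 it was chr1:123516051-127119650 (3.60 Mb), on chromosome 11 chr11:37049951-40505450 (3.46 Mb), and on chromosome 3 chr3:46674851-49866100 (3.19 Mb). It was chr10:62830251-65954650 (3.12 Mb) on chromosome 10, chr16:52742751-55783850 (3.04 Mb) on chromosome 16 and chr15:13103051-16061750 (2.96 Mb) on chromosome 15. On the others it was shorter still: chr4:66562901-69287500 (2.72 Mb), chr9:80217151-82723700 (2.51 Mb), chr14:41999801-44503100 (2.50 Mb), chr13:86485701-88961200 (2.48 Mb) and chr19:18788201-20995100 (2.21 Mb). A high share thus did not need a very long stretch: on chromosome 4, which had 30.5% of its span in 28 stretches, none exceeded 2.72 Mb, whereas chromosome 17 had 18.0% of its span in 8 stretches, 1 of them of 4.99 Mb.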

How the data were processed

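H3K56ac ChIP-seq of E14Tg2a cells was analysed from the interval list of 1 library. Per the submitters' processing notes, Bowtie and mm9 were used; of the interval caller, its threshold, any joining and the use of the input, nothing is stated in the labels. Per the file as deposited, each line is a chromosome, a start and an end, with no header, score or signal. Starts and ends all lay on a 50 bp grid when counted from 1 with the end included (0 off the grid). Chromosomes 1 to 19 were sorted by start, and gaps of more than 1000000 bp were kept. Spans run from the first to the last interval, because chromosome lengths were not used here. Gene content, base composition and unknown bases, foreseen only with an mm9 genome, were not analysed here. Named were the 10 longest stretches, the 5 inside and outside the limit, the 5 runs with the most members and with the largest sums, their islands, and each chromosome's longest stretch. Islands of 1, the 3 largest islands and the 3 largest edge groups were added after their values were seen, as were the comparisons of flanks, edge groups, X and interval density. The members and lists were chosen with earlier results of these data known. Intervals less than 10 kb apart count as neighbours of a group; the lone intervals left out in an alternative had none within 12.5 kb. The code was tested on simulated data with set gaps. Exact binomial intervals are at 95% (Clopper-Pearson). The tools were Python 3.11.15 with pandas 2.3.3, numpy 2.4.6 and scipy 1.17.1, and figures were drawn with matplotlib 3.10.9.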

Additional observations from a re-analysis of the deposited data

How the results depend on the processing

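Of 22 alternative values, 8 stayed close to the reported one (counts within 1.5 times, shares of items within the binomial interval, other values equal), 14 moved and 0 changed direction. Most of these values are counts, shares of span or lengths, which have no direction to change. No paired analysis was possible because there is 1 library per group and no test. The number of stretches, 331 at 1 Mb, was 855 at 0.5 Mb and 96 at 2 Mb, with 39.6% and 11.04% of the span against 24.4%, and a median length of 2.56 Mb at 2 Mb against 1.51 Mb. Without the 50 bp intervals there were 399 stretches with 32.3% of the span and a median of 1.64 Mb. With only intervals wider than 100 bp there were 476 with 42.3%. Without the lone intervals of the list, 479 stretches held 42.5% at a median of 1.70 Mb. Leaving out intervals can only lengthen gaps, by construction. Runs of 2 or more, 52, were 25 with islands of 1 interval only, 61 with islands of up to 20 and 37 with islands spanning up to 100 kb. Bounding intervals of 50 bp, 47.0%, were 42.9% at 2 Mb, and the median gap beyond them, 49.6 kb, was 58.6 kb at 0.5 Mb and 51.2 kb at 2 Mb. Without read counts or a second library, neither the presence nor the absence of an interval could be checked.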

Other observations

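Before the first interval of each autosome lay a further empty segment, which the selection does not count because no interval precedes it. The first interval started between 3.01 and 3.66 Mb on 18 autosomes and at 4.39 Mb on chromosome 1. Mouse genome builds begin each autosome with unresolved centromeric sequence; the base content of these segments was not analysed here.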
